A study of Mus musculus with 6 samples.

Results

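Fatty acid oxidation genes were followed in RNA-seq counts of immortalized mouse podocytes, the epithelial cells that cover the capillaries of the kidney's filter. The set held 34 genes of the carnitine shuttle, of mitochondrial and peroxisomal beta-oxidation, of electron transfer from it and of acyl-CoA thioesterases, taken by symbol after the version had been removed from the Ensembl identifiers and these had been matched to GENCODE M21. All 34 were found among the 57132 genes of the table, and 33 were among the 16263 genes that passed the filter on low counts. Cpt1b, with 38 counts over all 6 samples, did not pass.

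The 3 WT samples were of the line IMWT (Col4a3+/+) and the 3 AS samples of the line IMAS (Col4a3-/-), which lacks the collagen chain that is affected in Alport syndrome (AS). Both lines were labelled as coming from adult 8-week-old male mice. They were obtained by crossing Col4a3 knockout mice with H-2Kb-tsA58 mice (CBA/CaxC57BL/10), so that WT and AS cells alike carried a temperature-sensitive large T antigen under an interferon-inducible promoter. All cells were untreated. Per the labels they were grown at 33 °C with 20 U/mL interferon gamma and 10% serum and were differentiated for 14 days at 37 °C, whereas the study's methods give less interferon gamma, its withdrawal on differentiation and fewer days. Each genotype was 1 cell line, so that genotype and line cannot be told apart. The labels do not state whether the numbered samples of a line were separate cultures, and the study's general remark on independent experiments does not name these libraries. The p-values therefore measure the spread between these samples, which may be technical.

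Long-chain fatty acids enter mitochondria as carnitine esters, made by carnitine palmitoyltransferase 1 on the outer membrane and turned back into acyl-CoA by carnitine palmitoyltransferase 2 on the inner membrane. Each round of beta-oxidation then takes a dehydrogenation, a hydration, another dehydrogenation and a thiolytic cleavage, and shortens the chain by 1 acetyl-CoA, while electrons pass through the electron transfer flavoprotein to the respiratory chain. Peroxisomes shorten very long and branched chains with a separate set of enzymes, in which an oxidase takes the place of the first dehydrogenase. The comparison of AS with WT podocytes bears on a study of lipid droplets, fatty acid transfer and mitochondria in Alport podocytes. Lipid amounts and oxidation rates are no part of these counts.

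Total counts lay between 45417221 and 54290968 per sample. Levels are given as CPM, the counts relative to TMM-scaled library sizes, and a gene was called when its adjusted p was under 0.05 in edgeR's quasi-likelihood test with Benjamini-Hochberg adjustment over all genes tested. Col4a3 itself was at 938, 1052 and 1272 CPM in WT and at 62.4, 61.2 and 82.9 CPM in AS samples (log2 fold change -3.98, SE 0.15, adjusted p = 1.31e-07), which fits the genotype labels. The podocyte label was borne out in part: Synpo and Actn4 were abundant, but Wt1 fell from 15.3 to 25.8 CPM in WT to 1.44 to 3.14 CPM in AS samples. Of 8 podocyte markers tested, 1 was higher and 6 were lower in AS, and their summed level was 2050 to 2348 CPM in WT and 1659 to 1786 CPM in AS samples. Of the 6 proximal tubule markers 1 was lower and none higher among 4 tested, with a summed level of 377 to 424 CPM in WT and 281 to 392 CPM in AS samples, nearly all of it from Lrp2 and Aqp1, and Miox at 0. Mesangial markers summed to 248 to 276 and 123 to 125 CPM and parietal epithelial markers to 541 to 651 and 392 to 425 CPM in WT and AS samples, distal nephron markers stayed under 1 CPM with Umod and Aqp2 at 0, endothelial markers reached 1.35 CPM at most, and macrophage markers summed to 11.2 to 15.0 and 5.11 to 7.02 CPM with Adgre1 at 0. WT sample 1 stood apart: its counts differed from those of the other WT samples by a chi-square per degree of freedom of 47.5 and 49.9, against 9.78 between WT samples 2 and 3 and 18.8 to 22.4 among AS samples. The part that marker levels and that library have in the values below was not tested, and values without WT sample 1 are given where they move.

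As a whole the oxidation genes did not shift in 1 direction. Of the 33 tested, 7 were called higher in AS podocytes (Cpt1a, Cpt1c, Acaa2, Eci1, Etfa, Decr2 and Acot2), 10 were called lower (Cpt2, Crat, Acad9, Acad11, Hadhb, Acaa1a, Hsd17b4, Ehhadh, Scp2 and Acot8) and 16 were not called. Calls were common in this comparison: 40.1% of all genes tested were called, 20.4% higher and 19.6% lower, beside 51.5% of the oxidation genes. In bulk samples, fewer cells of a type and less RNA per cell cannot be told apart. The median log2 fold change of the oxidation genes was -0.03 and that of all genes tested was 0.01. In size the differences were modest, with a median absolute log2 fold change of 0.20 against 0.28 over all genes tested. In 4 genes (Cpt1a, Cpt2, Acaa1a and Ehhadh) the log2 fold change passed 0.5 in either direction, a size that 30.5% of all genes tested passed. The CPM of the 3 WT and 3 AS samples did not overlap in 22 of the oxidation genes, while this held for 52.3% of all genes tested.

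**Figure D1:**
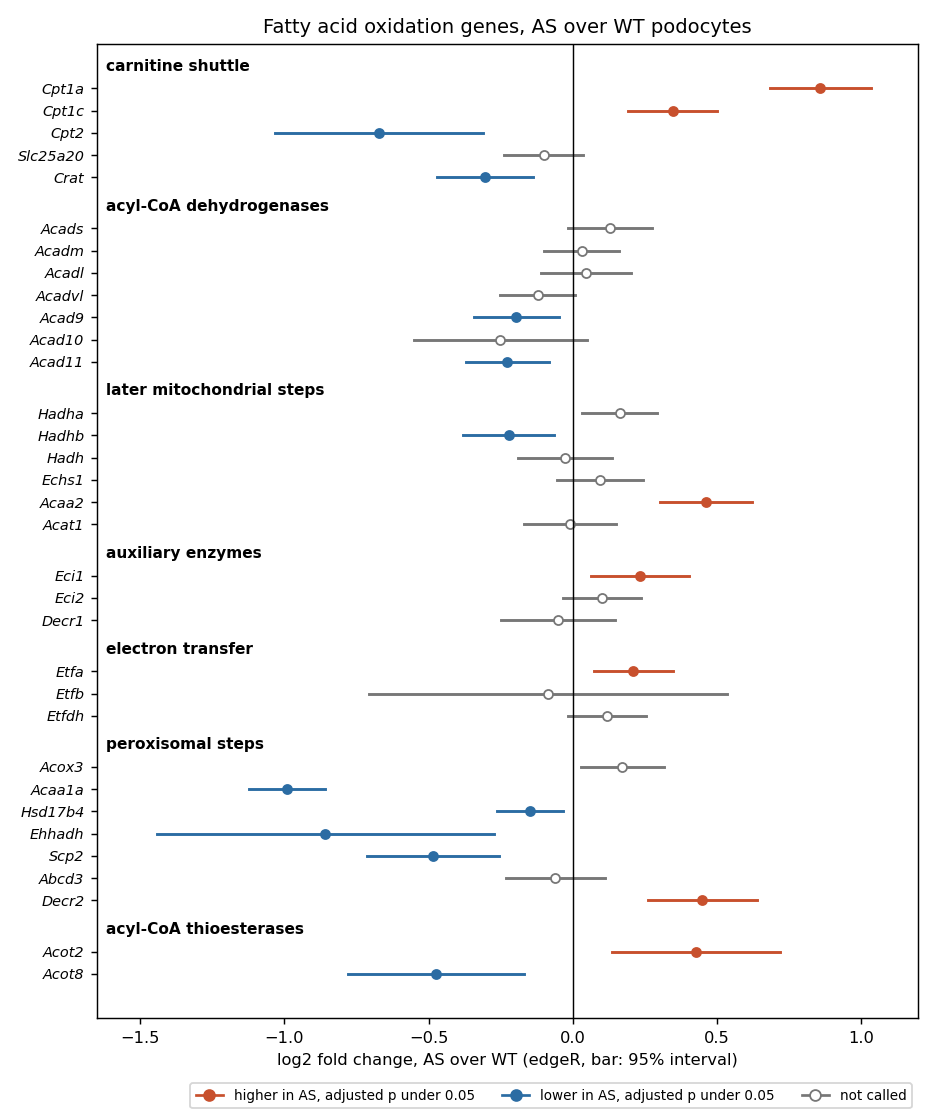
Log2 fold change of AS over WT for the 33 oxidation genes tested, ordered by step. Points are edgeR estimates, bars their 95% intervals, and filled points were called (orange higher, blue lower). The largest values are those of Cpt1a at 0.86 and Acaa1a at -0.99, while the 7 acyl-CoA dehydrogenases lie between -0.25 and 0.13.

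The carnitine shuttle held both a rise and a fall. Cpt1a, the main carnitine palmitoyltransferase 1 outside muscle and the step that malonyl-CoA inhibits, was at 105, 109 and 95.9 CPM in WT and at 207, 176 and 179 CPM in AS samples. All AS samples thus lay above all WT samples, a rise of 1.81-fold (log2 fold change 0.86, SE 0.08, adjusted p = 3.27e-05). Cpt2, which completes the transfer in the matrix, was at 100, 62.9 and 65.1 CPM in WT and at 52.1, 46.7 and 44.8 CPM in AS samples. The groups did not overlap, but WT sample 1 was far above the other WT samples. The log2 fold change was -0.67 (SE 0.16, adjusted p = 0.0086), and without WT sample 1 it was -0.42 (adjusted p = 0.000791), still a call. The ratio of Cpt1a to Cpt2 counts, which does not depend on library scaling, was 1.04, 1.74 and 1.47 in WT and 3.98, 3.77 and 4 in AS samples. Since neither gene overlapped between groups, in opposite directions, this ratio had to separate them and was given no test.

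The other palmitoyltransferases and the carriers changed less. Cpt1c, an isoform of the endoplasmic reticulum best known from neurons, was at 98.1, 101 and 108 CPM in WT and 120, 133 and 139 CPM in AS samples (log2 fold change 0.35, SE 0.07, adjusted p = 0.0033). Its groups did not overlap. Cpt1b, the muscle isoform, had between 1 and 14 counts per sample and was not tested, and 81.4% of its exon bases lie in a second annotated gene on the same strand, which had 0 counts, so that its count is uncertain. Crat, which moves short acyl groups between carnitine and CoA, was at 27.9, 31.8 and 31.5 CPM in WT and 24.7, 25.6 and 23.6 CPM in AS samples (log2 fold change -0.30, SE 0.07, adjusted p = 0.0098). The carrier Slc25a20, which exchanges acylcarnitine for carnitine across the inner membrane, was at 40.2 ± 0.926 CPM in WT and 37.4 ± 1.67 CPM in AS samples (SD, n = 3) and was not called (log2 fold change -0.10, 95% interval -0.24 to 0.04).

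**Figure D2:**
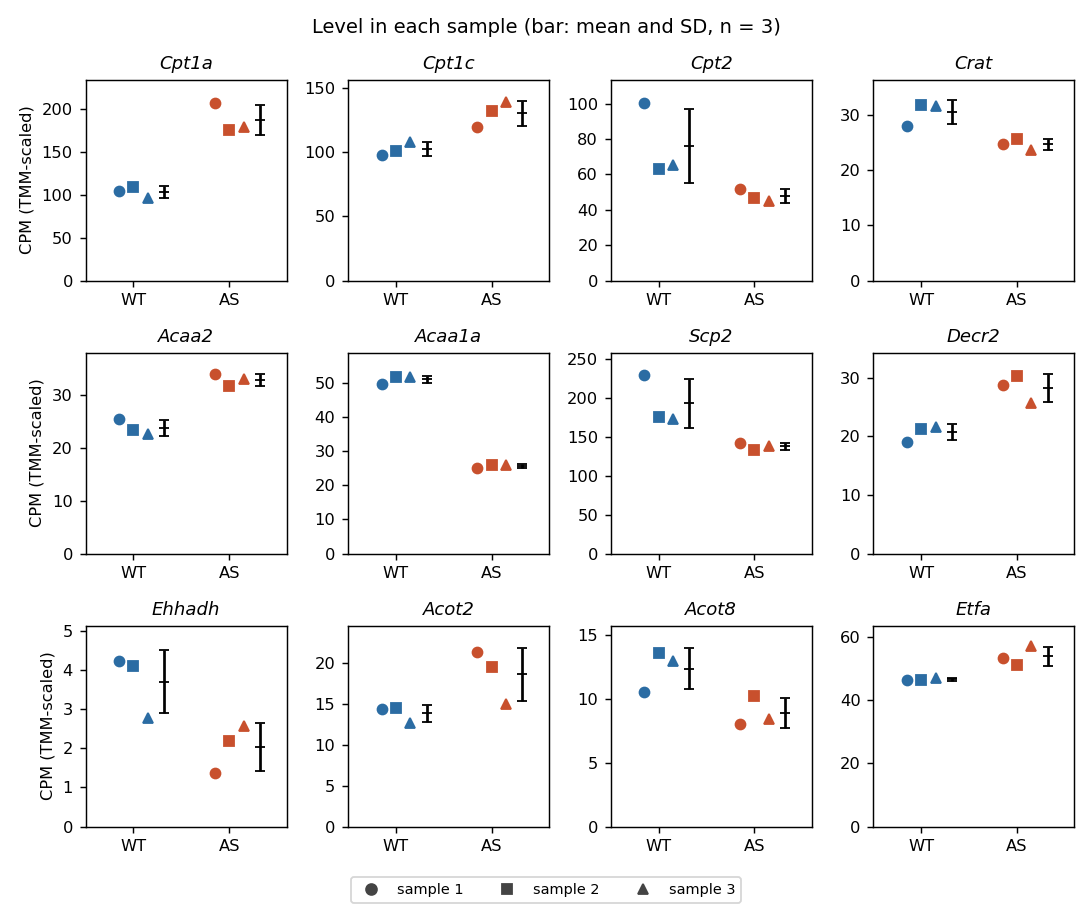
CPM of 12 oxidation genes in each of the 3 WT (blue) and 3 AS (orange) samples; the symbol gives the sample number and the bar the mean and SD. Cpt1a is higher and Acaa1a lower in all 3 AS samples, and WT sample 1 (circle) stands above the other WT samples for Cpt2 and Scp2.

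The sequence before the start site is shown for Cpt1a and Acaa1a, which had the largest rise and fall, and for Hadhb, whose start lies next to that of Hadha. Of the 34 genes, 27 had a window in the RefSeq table of mouse promoters (GRCm38.p6). The 250 bases before the start are given 5′ to 3′ on the gene's strand, at chr19:3323051-3323300 (+) for Cpt1a, chr9:119341044-119341293 (+) for Acaa1a and chr5:30155003-30155252 (+) for Hadhb. Capitals mark the GC box GGGCGG, the CCAAT box CCAAT and the nuclear receptor hexamer AGGTCA, on either strand.
Cpt1a: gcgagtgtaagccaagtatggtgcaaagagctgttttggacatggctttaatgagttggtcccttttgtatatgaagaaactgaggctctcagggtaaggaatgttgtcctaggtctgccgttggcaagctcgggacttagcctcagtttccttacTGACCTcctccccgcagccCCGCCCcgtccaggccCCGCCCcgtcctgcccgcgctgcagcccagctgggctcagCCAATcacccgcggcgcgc
Acaa1a: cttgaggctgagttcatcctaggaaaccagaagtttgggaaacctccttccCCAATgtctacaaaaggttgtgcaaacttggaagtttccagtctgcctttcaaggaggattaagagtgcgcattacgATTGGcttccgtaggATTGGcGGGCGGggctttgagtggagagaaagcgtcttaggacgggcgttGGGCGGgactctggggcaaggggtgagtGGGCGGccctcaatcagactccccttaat
Hadhb: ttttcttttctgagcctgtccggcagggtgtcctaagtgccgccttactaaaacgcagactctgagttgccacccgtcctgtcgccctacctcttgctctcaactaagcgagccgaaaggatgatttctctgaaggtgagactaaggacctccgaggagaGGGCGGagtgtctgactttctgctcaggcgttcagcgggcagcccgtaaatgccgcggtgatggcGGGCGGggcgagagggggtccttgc
Cpt1a held a single AGGTCA (as its reverse complement) that begins 94 bases before the start, a CCAAT box at 19 bases and GC boxes at 75 and 59 bases. Acaa1a held 3 CCAAT boxes and 3 GC boxes and no AGGTCA. The start sites of Hadha and Hadhb lie 273 bases apart on opposite strands, and their windows of 300 bases share 228 bases.

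Windows covered 300 bases (250 before and 50 after the start). Of the 27 genes with a window, GGGCGG stood in 21, and in 35.7% of all 32851 windows of the table. CCAAT stood in 12 genes and in 37.4% of all windows. A gene was counted when any of its windows held the motif, so that counts of genes stand beside shares of windows. AGGTCA stood in 6 (Acadm, Acadvl, Cpt1a, Cpt1c, Echs1 and Scp2) and in 16.3% of all windows. The element that peroxisome proliferator-activated receptors bind, AGGTCA repeated after 1 base of any kind (N), stood in none of the 27 and in 0.0396% of all windows. TCAAGGTCA, the element of estrogen-related receptors, was also in none and in 0.423% of all, and each of these longer motifs contains an AGGTCA. The palindromic site of nuclear respiratory factor 1 stood in Acad10 and Etfdh and in 0.971% of all windows. TATAAA (13.6% of all) and the cAMP response element TGACGTCA (1.79% of all) were in none. These matches are descriptions of letters on both strands and not of binding.

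Over the 19 mitochondrial genes from the acyl-CoA dehydrogenases to electron transfer, 3 were called higher, 3 lower and 13 were not called, a share of 31.6% called beside 40.1% of all genes tested. Their log2 fold changes ran from -0.25 to 0.46 with a median of 0.03, and none passed 0.5.

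The acyl-CoA dehydrogenases take the first step for chains of different length. Of the 7 tested, none was called higher and 2 were called lower, beside 20.4% higher and 19.6% lower over all genes tested. Acadvl, for very long chains, was at 128, 138 and 143 CPM in WT and 126, 126 and 123 CPM in AS samples, and Acadl, for long chains, was at 67.9 ± 2.34 and 70.1 ± 5.71 CPM (SD, n = 3). Neither was called, with 95% intervals of the log2 fold change of -0.25 to 0.01 for Acadvl and -0.11 to 0.20 for Acadl. Acadvl was called lower only without WT sample 1 (adjusted p = 0.0283), and 42.9% of its exon bases are covered by Dvl2 on the other strand. Acadm, for medium chains, was the most even, at 44.5, 41.5 and 42.2 CPM in WT and 43.4, 43.9 and 43.8 CPM in AS samples (log2 fold change 0.03, 95% interval -0.10 to 0.16). Acads, for short chains, was at 33.5 ± 1.54 and 36.6 ± 1.43 CPM and was not called (adjusted p = 0.144), although its groups did not overlap. The 2 calls were small falls. Acad9, which also serves the assembly of respiratory complex I, went from 27.5, 28.2 and 27.7 CPM to 24.3, 25.4 and 23.1 CPM (log2 fold change -0.20, SE 0.07, adjusted p = 0.0389). Acad11 went from 75.2, 85.6 and 85.5 CPM to 71.1, 68.4 and 71.0 CPM (log2 fold change -0.23, SE 0.06, adjusted p = 0.0186). Both calls were lost without WT sample 2, WT sample 3 or AS sample 3 (adjusted p = 0.107, 0.0846 and 0.143 for Acad9 and 0.0699, 0.0698 and 0.0543 for Acad11), that of Acad9 also without AS sample 1 (0.08) and that of Acad11 without AS sample 2 (0.0622). Acad10, low at 6.35 ± 0.45 CPM in WT and 5.34 ± 0.549 CPM in AS samples, was not called, and 18.3% of the 50-base words of its longest transcript also occur in Acad12.

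Hadha and Hadhb encode the alpha and beta subunits of the trifunctional protein, which carries out the last 3 steps on long chains. Hadha was at 143, 129 and 129 CPM in WT and 152, 149 and 149 CPM in AS samples (log2 fold change 0.16, SE 0.06, adjusted p = 0.0509), just outside the threshold. It was called higher without WT sample 1 (0.22, adjusted p = 0.00707), with limma-voom (0.0458), with library size only (0.0195) and with genes kept at a mean CPM of at least 1 (0.0471). With the median of each chromosome removed its sign turned (-0.02, adjusted p = 0.785). Hadhb was at 63.9, 74.8 and 70.0 CPM in WT and 59.4, 62.6 and 57.0 CPM in AS samples (log2 fold change -0.22, SE 0.07, adjusted p = 0.0314). That fall was not called without WT sample 2, WT sample 3, AS sample 1 or AS sample 3, where the adjusted p was 0.116, 0.0778, 0.0743 and 0.123. With the median of each chromosome removed it was called, at -0.41 (adjusted p = 0.00186). For both genes the groups did not overlap. Within samples the ratio of Hadha to Hadhb counts was 2.24, 1.73 and 1.84 in WT and 2.56, 2.38 and 2.61 in AS samples, which were again bound to separate and were not tested.

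Acaa2, the mitochondrial thiolase for medium and short chains, showed the largest difference of the 19 genes from the dehydrogenases to electron transfer. It was at 25.6, 23.4 and 22.6 CPM in WT and at 34, 31.7 and 33.0 CPM in AS samples, without overlap, a rise of 1.38-fold (log2 fold change 0.46, SE 0.07, adjusted p = 0.00081). Hadh, Echs1 and Acat1 were not called. Hadh, the dehydrogenase for shorter hydroxyacyl-CoA, was at 68.0 ± 1.22 and 66.8 ± 6.48 CPM, the hydratase Echs1 at 30.6 ± 1.71 and 32.7 ± 0.833 CPM, and Acat1, which splits acetoacetyl-CoA, at 47.9 ± 1.87 and 47.7 ± 3.7 CPM in WT and AS samples (SD, n = 3). Their 95% intervals of the log2 fold change were -0.19 to 0.14, -0.05 to 0.24 and -0.17 to 0.15. The signs for Hadh and Acat1 flipped with library size only as scaling (0.00061 and 0.02).

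Unsaturated fatty acids need isomerases and a reductase besides the main cycle. Eci1, an enoyl-CoA isomerase, was at 17.1, 18.7 and 16.7 CPM in WT and 20.4, 20.3 and 21 CPM in AS samples (log2 fold change 0.23, SE 0.08, adjusted p = 0.0344). Its samples did not overlap, but the call was lost on leaving out any 1 sample except WT sample 2, with adjusted p of 0.0637 (WT sample 1), 0.116 (WT sample 3), 0.0832, 0.0782 and 0.106 (AS samples 1 to 3). Its relative Eci2, also found in peroxisomes, was at 48.3 ± 0.374 and 51.9 ± 2.95 CPM and was not called (adjusted p = 0.215). Decr1, the mitochondrial dienoyl-CoA reductase, was at 30.7, 29.5 and 32.2 CPM in WT and 29.6, 33.2 and 26.5 CPM in AS samples, with overlapping groups (log2 fold change -0.05, 95% interval -0.25 to 0.15).

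Electrons from the acyl-CoA dehydrogenases pass to the flavoprotein of Etfa and Etfb and from there to Etfdh, which reduces ubiquinone. Etfa was at 46.5, 46.3 and 47.2 CPM in WT and 53.3, 51.3 and 57.3 CPM in AS samples (log2 fold change 0.21, SE 0.06, adjusted p = 0.0208). All AS samples were above all WT samples. The call was lost without WT sample 2 (adjusted p = 0.0637), WT sample 3 (0.0503), AS sample 1 (0.0554) or AS sample 3 (0.088). Etfdh was at 65.6 ± 4.07 and 71.4 ± 0.947 CPM and was not called (adjusted p = 0.142). Etfb, the partner subunit of Etfa, had 327 counts over all samples, 0.777 to 1.32 CPM, and a wide 95% interval of the log2 fold change, -0.71 to 0.54. On the same strand 53.0% of its exon bases lie within another annotated gene that had 0 counts, so that its level is uncertain. A difference of the size seen for Etfa was not detectable at this count.

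The peroxisomal genes carried the 2 largest falls, those of Acaa1a and Ehhadh. Of 7 tested, 4 were called lower and 1 higher, beside 19.6% lower and 20.4% higher over all genes tested. Without WT sample 1 or WT sample 2, 3 of the 7 were called in all. Acaa1a, the peroxisomal thiolase, was at 49.9, 51.9 and 51.8 CPM in WT and 25.1, 26.0 and 26.1 CPM in AS samples. The groups were tight and far apart, a fall of 1.99-fold (log2 fold change -0.99, SE 0.06, adjusted p = 2.02e-06), the largest among the oxidation genes. Of the 50-base words of its longest transcript, 15.6% also occur in its near copy Acaa1b, which was at 2.34 ± 0.152 CPM in WT and 4.04 ± 1.17 CPM in AS samples (SD, n = 3). The sum of both thiolases was 52.1, 54.2 and 54.3 CPM in WT and 27.8, 30.4 and 31.1 CPM in AS samples, so that the fall was also seen in the sum. How reads that match both copies were counted is not stated.

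Scp2, whose longer product is a thiolase for branched chains and whose shorter product is a sterol carrier, was at 230, 176 and 173 CPM in WT and 142, 133 and 138 CPM in AS samples (log2 fold change -0.49, SE 0.10, adjusted p = 0.0044). WT sample 1 was again the highest, and without it the log2 fold change was -0.34 (adjusted p = 0.00054). Reads were counted per gene, so that the products were not separated. Of the 50-base words of its longest transcript, 41.4% also occur in the pseudogene Scp2-ps2, which had 0 counts, so that the level of Scp2 is uncertain. Ehhadh, the L-bifunctional enzyme, was low, at 4.22, 4.10 and 2.77 CPM in WT and 1.35, 2.18 and 2.56 CPM in AS samples (log2 fold change -0.86, SE 0.26, adjusted p = 0.0262). The highest AS sample lay just below the lowest WT sample, and the call was lost without WT sample 1 (adjusted p = 0.0531), WT sample 2 (0.0789), AS sample 1 (0.0656) or AS sample 2 (0.0529). Hsd17b4, the D-bifunctional enzyme that handles branched and very long chains, was abundant and moved little, from 116, 115 and 114 CPM to 108, 101 and 103 CPM (log2 fold change -0.15, SE 0.05, adjusted p = 0.0437). That call was lost in 5 of 6 fits with 1 sample left out, all but the one without AS sample 1, with adjusted p of 0.065 (WT sample 1), 0.108 (WT sample 2), 0.0901 (WT sample 3), 0.14 (AS sample 2) and 0.13 (AS sample 3).

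In the other direction, Decr2, the peroxisomal dienoyl-CoA reductase, was at 19.1, 21.3 and 21.7 CPM in WT and 28.8, 30.3 and 25.7 CPM in AS samples, without overlap (log2 fold change 0.45, SE 0.08, adjusted p = 0.0024). The ratio of Decr2 to its mitochondrial counterpart Decr1 was 0.672 ± 0.0496 in WT and 0.952 ± 0.0344 in AS samples (SD, n = 3, exact permutation test, two-sided p = 0.10, the smallest that 3 against 3 samples allow). Since Decr2 alone already separated the groups, this ratio is no separate evidence of a difference. Acox3, an oxidase for branched chains, was at 73.0 ± 3.67 and 82.3 ± 4.96 CPM and missed the threshold (log2 fold change 0.17, 95% interval 0.03 to 0.32, adjusted p = 0.0576). It was called without WT sample 3 (0.21, adjusted p = 0.0498) or AS sample 2 (0.21, adjusted p = 0.0449) and with library size only (0.0361). With the median of each chromosome removed the sign of Acox3 turned (-0.01, adjusted p = 0.887). Abcd3, a transporter of the peroxisomal membrane, was at 80.8, 68.4 and 70.4 CPM in WT and 74.5, 70.4 and 65.9 CPM in AS samples and was not called (95% interval of the log2 fold change -0.23 to 0.11).

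The acyl-CoA thioesterases, which release free fatty acid from CoA, moved in opposite directions. Acot2, of the mitochondrial matrix, was at 14.3, 14.5 and 12.6 CPM in WT and 21.3, 19.5 and 15.0 CPM in AS samples (log2 fold change 0.43, SE 0.13, adjusted p = 0.0261). AS sample 3 lay close to the WT samples. The call was lost without WT sample 3 (adjusted p = 0.0886), AS sample 1 (0.107) or AS sample 2 (0.0896), and 27.7% of the 50-base words of its longest transcript occur in other genes, chiefly its near copy Acot1. Acot8, of peroxisomes, was at 10.5, 13.6 and 13.0 CPM in WT and 8.04, 10.3 and 8.39 CPM in AS samples (log2 fold change -0.47, SE 0.14, adjusted p = 0.0205). Its groups did not overlap, by a narrow gap. The call was lost without WT sample 2 (adjusted p = 0.0739), WT sample 3 (0.063), AS sample 1 (0.068) or AS sample 3 (0.0794). Snx21 covers 12.3% of the exon bases of Acot8 on the other strand, and had 3778 counts over all samples against 3119 for Acot8.

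In all 14 alternatives, which were other scalings, filters, tools and fits with 1 sample left out, 8 of the 17 calls were kept: Cpt1a, Cpt1c, Acaa2 and Decr2 higher, and Cpt2, Crat, Acaa1a and Scp2 lower. Whole chromosomes differed between the lines: relative to all genes, the median log2 fold change was 0.17 on chromosome 19, which holds Cpt1a, and -0.18 on chromosome 4, which holds Cpt2 and Scp2. With the chromosome medians taken out, the log2 fold change was 0.69 for Cpt1a, -0.49 for Cpt2, -0.31 for Scp2 and -0.98 for Acaa1a on chromosome 9, and all were still called. Acad9 on chromosome 3 and Hsd17b4 on chromosome 18 were not called in that fit (-0.08 and -0.03). With library size as the only scaling Acad9, Hadhb and Hsd17b4 were not called (adjusted p = 0.0847, 0.0705 and 0.0775), and without a filter on low counts Acad9, Eci1 and Hsd17b4 were not (0.119, 0.0777 and 0.143).

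Levels between genes can be compared only per length, and were taken as CPM per kilobase of the gene's exons. In WT samples Scp2 (55.5 ± 9.15) and Acadvl (50.7 ± 2.92) stood highest and did not differ beyond their SD (n = 3). Hsd17b4 (33.9 ± 0.367), Acadl (33.8 ± 1.17) and Cpt2 (31.9 ± 8.82) followed and were not separated by their SD either. For Scp2 the level is uncertain, since part of its sequence also occurs in a pseudogene. In AS samples the order at the top was Acadvl (46.6 ± 0.679), Scp2 (39.6 ± 1.31), Acadl (35.0 ± 2.85) and Hsd17b4 (30.6 ± 1.1), and Cpt2 stood in place 9, against 5 in WT. Cpt1a went from place 12 (13.5 ± 0.888) to place 6 (24.5 ± 2.26), so that its level per length passed that of Cpt2 (20.0 ± 1.58) in AS samples only, while in WT samples it was below Cpt2. Acaa1a went from place 14 (11.6 ± 0.254) to 26 (5.83 ± 0.124). At the bottom stood Ehhadh (1.24 ± 0.269), Acad10 (1.05 ± 0.0741), Etfb (0.978 ± 0.127) and Cpt1b (0.0183 ± 0.0115) in WT samples. With the longest transcript as the length, Scp2 and Acadvl stayed on top and Cpt1b last, while Cpt2 stood in place 7 and Cpt1a in place 9 of the WT order.

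**Figure D3:**
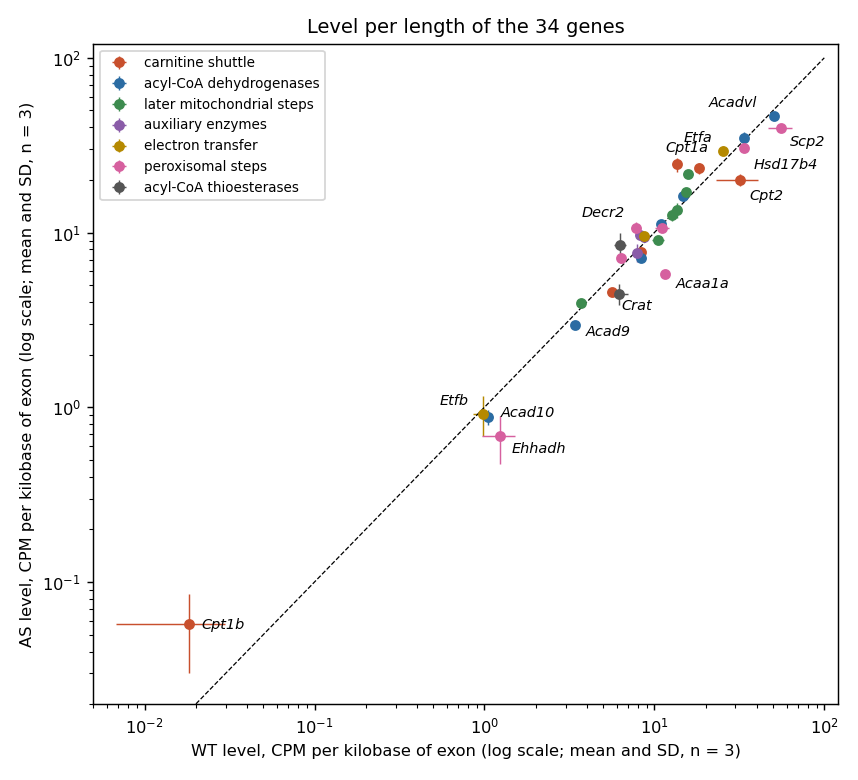
Mean level of the 34 oxidation genes in WT (x axis) and AS (y axis) samples as CPM per kilobase of exon, both on log scales, with SD bars (n = 3); colours give the step and the dashed line equal levels. Most genes lie near the line, with Cpt1a above it, Acaa1a and Cpt2 below it, and Cpt1b at 0.0183 in WT far under the rest.

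Genes that feed or control oxidation were described from lists of 99 further genes, of which 87 were tested: 16 were called higher and 21 lower, or 42.5%, close to the 40.1% of all genes tested. In the control of Cpt1 by malonyl-CoA, the carboxylases that make the inhibitor were not called. Acaca was at 86.4 ± 4.62 and 82.1 ± 4.27 CPM and Acacb, the form tied to mitochondria, at 5.09 ± 0.215 and 5.04 ± 0.576 CPM in WT and AS samples (SD, n = 3). Mlycd, which breaks malonyl-CoA down, was at 15.5 ± 0.715 and 18.6 ± 1.11 CPM (log2 fold change 0.26, adjusted p = 0.0316), a call lost without WT sample 1 (adjusted p = 0.0684), WT sample 3 (0.0733), AS sample 2 (0.121) or AS sample 3 (0.0944), and its sign turned with chromosome medians removed (-0.05). Subunits of AMP-activated protein kinase, which inhibits the carboxylases, went both ways: Prkag2 rose from 25.3 ± 0.952 to 40.4 ± 2.25 CPM (log2 fold change 0.67, adjusted p = 6.5e-05), whereas Prkaa2 fell from 98.5 ± 2.07 to 71.9 ± 4.44 CPM (-0.46, adjusted p = 0.000298) and Prkab2 from 37.4 ± 3.15 to 25.8 ± 0.17 CPM (-0.54, adjusted p = 0.000447). Over that list of 9, 2 were higher, 2 lower and 5 not called. Of 3 carnitine supply genes tested of 7 listed, Aldh9a1, an enzyme of carnitine synthesis, rose from 20.0 ± 2.12 to 28.9 ± 0.692 CPM (log2 fold change 0.53, adjusted p = 0.000957), and the carnitine transporter Slc22a5 was not called (15.9 ± 1.76 and 15.3 ± 0.745 CPM).

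Among 11 transcriptional regulators of oxidation, 2 were higher, 3 lower and 6 not called, or 45.5% called beside 40.1% of all genes tested. The receptors that fatty acids activate were not called: Ppard, the only one of them at a substantial level, was at 48.8 ± 3.84 CPM in WT and 49.0 ± 0.845 CPM in AS samples (SD, n = 3), while Ppara (0.0973 to 0.581 CPM) and Pparg (0.488 to 0.681 CPM) were low. The coactivator Ppargc1a was at 1.08, 1.11 and 0.694 CPM in WT and 1.82, 1.42 and 1.04 CPM in AS samples, with overlap (log2 fold change 0.56, SE 0.30, adjusted p = 0.174). Its relative Ppargc1b, at 0.363 ± 0.11 CPM in WT, was lower (log2 fold change -1.25, adjusted p = 0.0489), a call that was lost without any 1 of the 6 samples (adjusted p from 0.0608 without WT sample 2 to 0.185 without WT sample 3) and with limma-voom (0.0638) or DESeq2 (0.101). Of the estrogen-related receptors, Esrra rose from 36.6, 43.8 and 41.1 CPM to 51.3, 57.9 and 60.3 CPM (log2 fold change 0.48, SE 0.09, adjusted p = 0.00182), and Esrrg fell from 1.48, 1.09 and 0.802 CPM to 0, 0.136 and 0.145 CPM (log2 fold change -3.49, SE 0.62, adjusted p = 0.00181). Nrip1, a corepressor, fell from 75.6 ± 6.61 to 60.3 ± 6.17 CPM (-0.33, adjusted p = 0.0154), a call lost without AS sample 2 (adjusted p = 0.0568) or AS sample 3 (0.0537) and with chromosome medians removed (0.0555).

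A further 19 genes were listed under peroxisomal oxidation, by pathway and not by place in the cell, and 13 were tested. Of these 13, 5 were called lower and 2 higher, beside 19.6% lower and 20.4% higher over all genes tested. With 1 sample left out, 3 to 6 of them were called, with 3 without AS sample 2, 5 without AS sample 1 and 4 without WT sample 2, WT sample 3 or AS sample 3. Acsl1, a long-chain acyl-CoA synthetase, was at 166, 127 and 129 CPM in WT and 98.0, 75.3 and 83.1 CPM in AS samples (log2 fold change -0.72, SE 0.12, adjusted p = 0.00128). Phyh, which starts the oxidation of phytanic acid, fell from 7.45 ± 0.939 to 4.25 ± 0.565 CPM (-0.81, adjusted p = 0.00255), and Acot12, low throughout, fell from 0.953 ± 0.195 to 0.135 ± 0.0713 CPM (-2.82, adjusted p = 0.00105). Crot, which makes acylcarnitines in peroxisomes, was just inside the threshold at 54.1 ± 0.646 and 59.9 ± 0.961 CPM (0.15, adjusted p = 0.0482) and was called in none of the fits with 1 sample left out (adjusted p from 0.0501 without WT sample 1 to 0.141 without AS sample 2). Abcd2, a transporter of the peroxisomal membrane, was too low to test. Of 17 peroxisome assembly genes, 3 were higher, 1 was lower and 13 were not called, or 23.5% called beside 40.1% of all genes tested. Among those higher were Pex3 (17.6 ± 0.572 to 23.3 ± 0.345 CPM, 0.40, adjusted p = 0.00145) and Cat, catalase (94.5 ± 9.03 to 120 ± 1.76 CPM, 0.34, adjusted p = 0.00415). The import receptor Pex5 was lower (69.9 ± 3.43 to 57.4 ± 1.09 CPM, -0.28, adjusted p = 0.00382). With chromosome medians removed the calls of Pex3 and Pex5 were lost (0.09 and -0.07).

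Outside the main cycle, 4 of 7 other dehydrogenases and factors tied to the electron transfer flavoprotein were lower and 1 was higher. For all genes tested the shares were 19.6% lower and 20.4% higher. Acadsb, which acts on branched short chains, fell from 152 ± 8.08 to 116 ± 4.34 CPM (log2 fold change -0.39, adjusted p = 0.000718), and Etfrf1, a regulator of the flavoprotein, from 25.0 ± 2.26 to 15.5 ± 0.637 CPM (-0.69, adjusted p = 0.000244). Gcdh, of lysine breakdown, rose from 17.9 ± 1.23 to 22.6 ± 1.48 CPM (0.34, adjusted p = 0.0107), but was not called without AS sample 2 (adjusted p = 0.051) or with chromosome medians removed (0.03). Among 5 ketone body genes, Bdh1 fell from 8.52, 5.94 and 5.92 CPM to 1.91, 1.50 and 1.67 CPM (-2.01, adjusted p = 5.29e-05). Acat2, the cytosolic thiolase of that list, rose from 20.6 ± 1.74 to 25.3 ± 1.1 CPM (0.30, adjusted p = 0.0159), a call lost without WT sample 3 (adjusted p = 0.0624) or AS sample 2 (0.0682). Of the 6 genes of propionyl-CoA use, 5 were not called and Pccb was lower (-0.28, adjusted p = 0.0143, and 0.0523 without AS sample 2). Of 6 other thioesterases tested, Acot7 rose from 57.5 ± 7.24 to 88.8 ± 6.06 CPM (0.63, adjusted p = 0.000661) and Acot11 fell from 10.2 ± 0.708 to 2.05 ± 0.194 CPM (-2.32, adjusted p = 2.02e-06).

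Markers of mitochondrial amount went in both directions, with a median log2 fold change of -0.16 over the 10 listed. Of these, 2 were higher, 3 lower and 5 not called, or 50% called beside 40.1% of all genes tested. In WT and AS samples (SD, n = 3), Cs, citrate synthase, was at 255 ± 10.7 and 320 ± 5.56 CPM (log2 fold change 0.33, adjusted p = 0.0015). The adenine nucleotide carrier Slc25a4 was at 413 ± 18.5 and 499 ± 11.2 CPM (0.27, adjusted p = 0.00529). The outer membrane channel Vdac1 was at 293 ± 4.13 and 234 ± 4.3 CPM (-0.33, adjusted p = 0.000968). With chromosome medians removed Cs was at 0.02 and Slc25a4 at -0.03, and neither was called. The share of counts on mitochondrially encoded genes was 0.882, 1.39 and 1.68% in WT and 1.30, 1.65 and 2.02% in AS samples, with overlap and with sample 1 the lowest of each line.

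**Figure D4:**
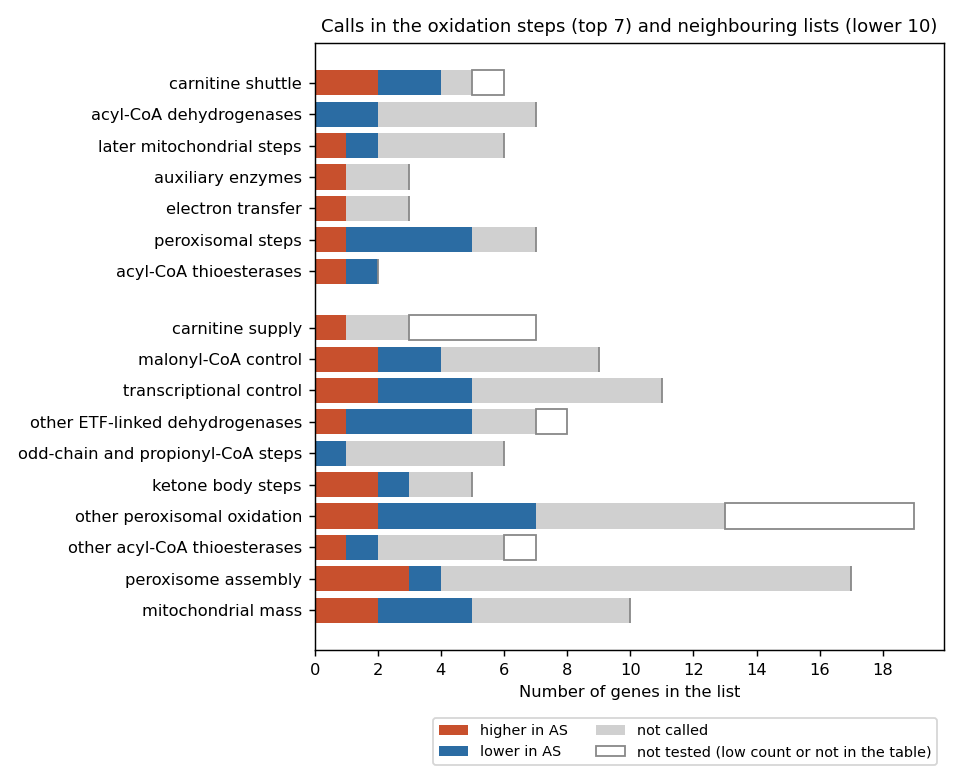
Number of genes called higher (orange) and lower (blue) in AS, not called (grey) and not tested (white), for the 7 steps of the oxidation set and 10 neighbouring lists; the x axis counts genes. Called were 4 lower and 1 higher of 7 in the peroxisomal steps, 5 lower and 2 higher of 13 in other peroxisomal oxidation and 2 lower of 7 acyl-CoA dehydrogenases, beside 19.6% lower and 20.4% higher over all genes tested.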

How the data were processed

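The analysis started from bulk RNA-seq of the 6 podocyte samples. The authors deposited whole-number read counts per gene, not normalized. Per the labels, mRNA libraries went through 15 PCR cycles. The submitters' processing notes name FastQC, Trim Galore, STAR, edgeR and the build mm39, whereas the sources used here name neither the counting tool nor the annotation release. Among 57132 identifiers, 51880 matched GENCODE M21 (GRCm38) without the version, and the rest held 0.363% of counts. That release gave symbols, chromosomes and exon lengths only.

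After filterByExpr (min.count 10, min.total.count 15) and TMM scaling, genes were tested two-sided with genotype as the only term in edgeR 4.0.16 (R 4.3.3). Alternatives were DESeq2 1.42.0, limma-voom (limma 3.58.1), other scalings and filters, a replicate block, chromosome medians as an offset and each sample left out. Shared 50-base words were counted between transcripts. Intervals cover counting error and the spread between samples.

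The members and lists were chosen with earlier results of these data known. Named are all members, Col4a3, of each neighbouring list the 3 called genes with the smallest adjusted p, fixed regulators and transporters, and near copies that share sequence with a member, except for items not reported here.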

Additional observations from a re-analysis of the deposited data

How the results depend on the processing

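Under the 8 settings that kept all samples, 6 to 9 oxidation genes were called higher and 7 to 10 lower, and the median log2 fold change lay between -0.03 and 0.00061. With each sample left out, 4 to 7 were called higher and 4 to 9 lower, with 4 higher without AS sample 1, and 4, 5, 6 and 5 lower without WT sample 2, WT sample 3, AS sample 1 and AS sample 3. The median then lay between -0.06 and 0.03, and 5120 to 6776 genes were called in all. Of the 462 values of single oxidation genes, 387 kept direction and side of the threshold, and the 18 that turned in sign were all of genes not called. With chromosome medians removed the sign turned for Acads (-0.057), Hadha (-0.024), Hadh (0.091), Acat1 (0.0079), Decr1 (0.13), Acox3 (-0.014), Abcd3 (0.056), Mlycd (-0.050), Ppara (-0.16), Ppard (-0.0019), Crot (-0.040) and Slc25a4 (-0.035). With library size only it turned for Hadh (0.00061), Acat1 (0.018) and Acacb (0.013). It turned for Ppara with limma-voom (-0.29), and for Ppard with DESeq2 size factors (-0.0028), a mean CPM of at least 1 (-0.00069) and DESeq2 (-0.0029). Leaving out 1 sample turned the sign, over the ranges given, for Acadl (-0.0088 to 0.11), Hadh (-0.12 to 0.021), Acat1 (-0.058 to 0.055), Decr1 (-0.14 to 0.030), Etfb (-0.27 to 0.086), Abcd3 (-0.11 to 0.017), Slc22a5 (-0.15 to 0.0026), Acacb (-0.095 to 0.068), Ppara (-0.91 to 0.44), Ppard (-0.046 to 0.068) and Pparg (-0.11 to 0.12). The causes were not tested.

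Same-numbered WT and AS samples deviated together only weakly (correlations 0.147, 0.0939 and 0.0526), though each AS sample correlated best with its own number, and the numbers were not taken as pairs. With the replicate block 7066 genes were called, among them 9 oxidation genes higher, with Hadha (adjusted p = 0.0332) and Acox3 (0.0281) added, and 10 lower, and the log2 fold change of Ppara was -0.18. Low counts limited what could be seen: the SE of the log2 fold change was 0.28 for Etfb and 0.26 for Ehhadh, against 0.05 to 0.16 for the other oxidation genes tested, and Cpt1b could not be tested.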

Other observations

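Chosen after the values were seen, Cpt2 and Scp2 lie near each other on chromosome 4, with 3 tested genes between them in GENCODE M21: 4930407G08Rik, Slc1a7 and Podn. Podn, a secreted proteoglycan, was at 346, 182 and 166 CPM in WT and 146, 133 and 150 CPM in AS samples (log2 fold change -0.69, adjusted p = 0.0397 in edgeR). WT sample 1 was above the mean of WT samples 2 and 3 in all 5 genes, by 0.40 to 0.99 on the log2 scale, and by 0.65 for Cpt2. Of all genes tested, 88.3% deviated less than Cpt2 and 77.3% less than Scp2, in either direction. In WT samples 4930407G08Rik (0.705 to 1.64 CPM) and Slc1a7 (0.455 to 1.22 CPM) were low.

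Cpt1b and Etfb each share most of their exon bases with another protein-coding gene on the same strand. Over the table, 351 protein-coding genes shared at least 50% of their exon bases in this way, and 193 of them (55.0%) had 0 counts in all samples, while of 20651 protein-coding genes without such a base 4381 (21.2%) had 0 counts. Tested were 73 (20.8%) of the former and 12745 (61.7%) of the latter.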
